A study of Rattus norvegicus with 12 samples.

Results

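The miR-29 family is a set of 3 closely related microRNAs, miR-29a, miR-29b and miR-29c, each of which can be read as a 3p and a 5p arm of its hairpin. Its members here were chosen by name, as every miRNA called rno-miR-29a, rno-miR-29b or rno-miR-29c with any arm suffix in the deposited tables. They were rno-miR-29a-3p, rno-miR-29a-5p, rno-miR-29b-3p, rno-miR-29b-5p, rno-miR-29c-3p and rno-miR-29c-5p, written below without the species prefix. There were 6 of 574 miRNAs in the heart table and 3 of 367 in the exosome table, which listed the 3p arms alone, so that 6 of the 583 miRNAs named in either table were members. Small RNA was sequenced from SD rats, with 6 samples labelled heart and 6 labelled serum. The series concerns exosomes, small vesicles that cells release, after cardiac ischemia and reperfusion, and its design text gives 30 min of left coronary artery ligation followed by reperfusion for 1 week. The authors deposited 2 tables, heart and exosome, each of which compares libraries headed CK with libraries headed M. The labels do not say what CK and M stand for, whether either or both had the operation, how old the animals were, or which labelled sample belongs to which header, so both names are used as the headers give them. The samples labelled serum are the ones left for the exosome table.

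MicroRNAs are short RNAs that guide silencing proteins to messenger RNAs, mainly by pairing through the seed, bases 2 to 8 from the 5′ end. The 3p arms of miR-29 are known, chiefly from work in mouse, to lower messenger RNAs of extracellular matrix proteins, among them fibrillar collagens, fibrillins and elastin, and miR-29 is known in the mouse heart as a restraint on scar collagen. No messenger RNA or protein was measured here, so the collagen in the family's usual description is background. The mature sequences are printed because the 3p arms share a seed and the 5p arms do not, and because the near identity of miR-29a-3p and miR-29c-3p bears on their counts. They are RefSeq's, read for all 6 members from its GRCr8 tables, 5′ to 3′, with the seed in capitals.
miR-29a-3p: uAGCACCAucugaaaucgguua
miR-29b-3p: uAGCACCAuuugaaaucaguguu
miR-29c-3p: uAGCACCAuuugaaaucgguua
miR-29a-5p: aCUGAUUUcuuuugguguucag
miR-29b-5p: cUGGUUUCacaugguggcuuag
miR-29c-5p: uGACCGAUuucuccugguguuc
The 3p seed AGCACCA was found in 3 of 693 rat mature miRNA names in that table, the 3 members themselves. Counted from the 5′ end of miR-29a-3p, miR-29c-3p differed from it by the single substitution C10U. Between miR-29b-3p and miR-29c-3p the first 17 bases were identical, followed by A18G, G21U and U22A, and miR-29b-3p was 1 base longer.

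The arms come from 4 hairpin genes in 2 pairs. On chromosome 4, minus strand, Mir29a (chr4:60617955-60618042, GRCr8) lies 291 bases from Mir29b1 (chr4:60618334-60618414). On chromosome 13, plus strand, Mir29b2 (chr13:109098831-109098911) lies 447 bases from Mir29c (chr13:109099359-109099446), and both of these lie within the span of a long non-coding RNA gene, LOC102550527. miR-29b-3p is the same sequence from Mir29b1 and Mir29b2, so its reads cannot be given to either locus. RefSeq assigns miR-29b-5p to Mir29b2, which places it beside miR-29c, and the 5p arm of Mir29b1 has another name and was not listed in either table. The deposited tables hold no positions, and the submitters' processing notes name another build, mRatBN7.2.

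Each deposited value is the authors' group mean of normalized reads, that is, of read counts divided by a size factor for each library. The means were precise enough for the whole reads of the 3 libraries behind them to be solved, for all 6 members in heart and all 3 in the exosome table. Library numbers run from the shallowest to the deepest under each header, and no labelled sample can be tied to them. Estimated depth was 2253000 to 6610000 miRNA reads in heart and 1696000 to 5328000 in the exosome table. Heart M library 2 stood apart: its miRNAs had a median distance of 0.56 on the log2 scale from the other 2 M libraries, where the other heart libraries had 0.25 to 0.42. Exosome libraries differed more among themselves, by 0.76 to 1.15. The muscle miRNAs that mark heart tissue were abundant in the heart table, where the authors' deposited table gave miR-1b a CK mean of 365838 and an M mean of 344531 normalized reads. The red cell miRNA miR-486 led the markers in the exosome table, with 257951 and 287407. Nothing in the labels says that samples came from separate animals, so p-values measure the spread between these libraries, which may be technical.

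In heart, the family was almost entirely miR-29a-3p, and all 6 arms had lower means in M than in CK. The summed family level was 13631 ± 1516 normalized reads in CK and 10156 ± 2600 in M (SD, n = 3 libraries each). miR-29a-3p made up 94.1% of it in CK and 94.8% in M, miR-29c-5p 2.83% and 2.89%, and miR-29b-3p 2.02% and 1.43%. A lower M mean was found for 48.6% of the 574 heart miRNAs, and the 6 arms are not independent, since arms of a hairpin and hairpins of a pair come from common transcripts. In the authors' deposited table, none (0 of 6) passed the adjusted threshold of 0.05, beside 0.697% of all heart miRNAs, and limma on the solved reads also called 0 of 6, beside 0.977%. Both arms of miR-29b were lower at an unadjusted p below 0.05 by either test. That is 2 of 6 members, beside 3.48% of all heart miRNAs by the authors' deposited p-values and 10.1% in limma. In bulk tissue, fewer cells of a type and less RNA per cell cannot be told apart.

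**Figure D1:**
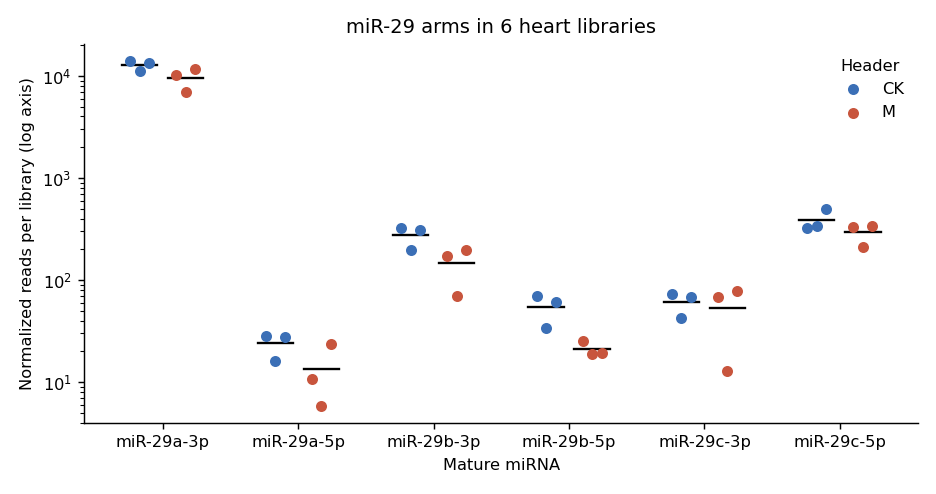
Normalized reads (log axis) of the 6 miR-29 arms in the 3 CK and 3 M heart libraries, with 1 point per library and a line at each group mean. By the authors' size factors, the points of M lie below those of CK for miR-29b-3p and miR-29b-5p, and overlap for the other 4 arms.

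miR-29a-3p, the main collagen-regulating arm by abundance, ranked 44th of the 574 heart miRNAs by mean. Its level was 13925, 11274 and 13292 normalized reads in CK libraries 1 to 3 and 10194, 6977 and 11721 in M libraries 1 to 3. M library 2 was the lowest, and M library 3 lay above CK library 2, so the groups overlapped. The M mean was 24.9% lower by the authors' deposited table (log2 fold -0.41, p = 0.315, adjusted p = 1). limma gave a log2 difference of -0.44 ± 0.23 (SE) with a 95% interval of -0.96 to 0.08. Without M library 2 the log2 fold of the means was -0.23. Its 5p arm, the strand that is usually discarded, was scarce, with 15.9 to 28.4 normalized reads in CK and 5.87 to 23.8 in M, from 5 to 43 whole reads per library (log2 fold -0.84, DESeq p = 0.299 in the authors' deposited table).

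miR-29b-3p, which carries the same seed, was much scarcer than miR-29a-3p. Its level was 322, 196.1 and 306 normalized reads in CK and 170, 69.5 and 195.8 in M, from 71 to 475 whole reads. CK library 2 was the lowest of CK and M library 3 the highest of M, and those 2 values nearly met without overlapping. Size factors recomputed from the solved reads were 0.89% higher for CK library 2 and 0.56% lower for M library 3. With them the order of those 2 values reverses, so the separation depends on the authors' size factors. The authors' deposited table gave a log2 fold of -0.92 (p = 0.0320, 0.574 once adjusted), and limma -1.02 ± 0.41 (SE; adjusted p = 0.206). Without M library 2 the log2 fold of the means was -0.59 and limma gave -0.56 (adjusted p = 0.284).

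miR-29b-5p, from the Mir29b2 hairpin, had the largest fold of the 6 arms in heart. It was at 69.3, 34.0 and 61.3 normalized reads in CK and at 25.5, 18.6 and 19.4 in M, from 12 to 95 whole reads. All 3 M libraries were low, and M library 2 did not stand apart from M library 3. The M mean was 61.4% lower in the authors' deposited table (log2 fold -1.37, p = 0.0113, adjusted p = 0.464). limma gave -1.28 ± 0.38 (SE), with a 95% interval of -2.15 to -0.42 and an adjusted p of 0.111. The log2 fold of the means stayed between -1.63 and -1.17 without each library in turn. The exact two-sided permutation test over the 6 libraries gave p = 0.10 for either arm of miR-29b, which is the smallest that 3 against 3 allows. By the authors' size factors, all M libraries lay below all CK libraries for these 2 of 6 arms and 13.4% of 307 heart miRNAs. For miR-29b-3p, both the separation and this permutation p depend on that scaling, as given above.

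miR-29c is encoded beside Mir29b2, and its arms differed less between groups. miR-29c-5p was at 322, 342 and 495 normalized reads in CK and at 331, 212 and 337 in M (log2 fold -0.40, DESeq p = 0.273 in the authors' deposited table). miR-29c-3p was at 72.5, 42.0 and 68.3 in CK and at 67.9, 12.7 and 77.6 in M (log2 fold -0.21, DESeq p = 0.686 in the authors' deposited table). Its lower M mean rested on M library 2, with 13 whole reads, and without that library the log2 fold of the means was 0.26, higher in M. Within a library, where no size factor enters, there were 9.96 to 21.5 reads of miR-29b-5p per 100 reads of miR-29c-5p in CK and 5.76 to 8.76 in M (exact two-sided permutation p = 0.10). The groups did not overlap, although both arms come from hairpins of the same chromosome 13 pair, and 2.66% of 301 other heart miRNAs separated downward in their ratio to miR-29c-5p. This ratio was chosen after the levels had been seen, as 1 of 9 ratios between members in heart, of which 3 did not overlap, all with miR-29b over another member. Its log2 difference was -0.92, and -0.61 without CK library 1.

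**Figure D2:**
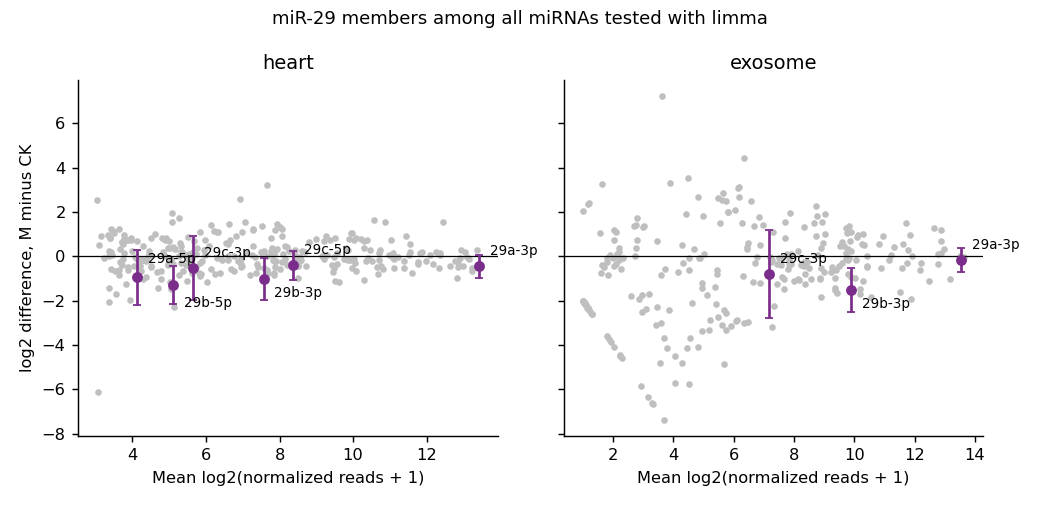
Difference between M and CK on the log2 scale against mean log2(normalized reads + 1) for all miRNAs tested with limma in heart (307) and exosome (272), with miR-29 members in purple and their 95% intervals. The intervals of both miR-29b arms in heart and of miR-29b-3p in the exosome table lie below 0, and those of the other members cross it, before any adjustment for the number of miRNAs.

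The arms gave opposite orders of miR-29a and miR-29c in heart. By the 3p arms, miR-29a had 150 to 548 reads for each read of miR-29c in the 6 libraries. By the 5p arms, miR-29c had 11.4 to 36.2 reads for each read of miR-29a. Between arms of the same name, miR-29a-3p had 479 to 1188 reads for each read of miR-29a-5p. miR-29b-3p had 3.74 to 10.1 for each of miR-29b-5p, and miR-29c-5p had 4.34 to 16.7 for each of miR-29c-3p. The miR-29b ratio is not that of a single hairpin, since miR-29b-3p comes from Mir29b1 and Mir29b2 and miR-29b-5p from Mir29b2. The 5p arm was thus the more abundant one for miR-29c alone, as it was for 53.9% of the 167 heart hairpins with both arms listed and a summed mean of at least 10. How the authors assigned reads that match both miR-29a-3p and miR-29c-3p with 1 mismatch is not given in the sources used here, and its part in these orders was not tested.

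Within the heart libraries, miR-29a-3p and miR-29b-3p were low where 2 muscle miRNAs, miR-208a-3p and miR-133b-3p, were low and the fibroblast miRNA miR-214-3p was high. These 3 were chosen for display after their values were seen. miR-29c-3p was also lowest in M library 2 and correlated with miR-29a-3p at 0.888 over the heart libraries. Its highest level, however, was in M library 3. miR-208a-3p is encoded in the gene of the alpha myosin heavy chain of heart muscle. It was at 1236, 838 and 1597 normalized reads in CK and at 785, 194 and 948 in M. miR-133b-3p is a miRNA of differentiated muscle that is outside the muscle marker list. It was at 1909, 1619 and 1956 in CK and at 1093, 441 and 1393 in M. M library 2 was the lowest for both, as for miR-29a-3p and miR-29b-3p. miR-214-3p, a miRNA of mesenchymal cells such as fibroblasts, was at 1068, 1558 and 796 in CK and at 2492, 9067 and 1425 in M, and was highest in M library 2. Across the heart table, 5 of 6 muscle markers had lower means in M and all 3 fibroblast markers had higher ones. The muscle markers did not move as one, since miR-1-3p had a higher M mean (log2 fold 0.29) and miR-1b (-0.09) and miR-208b-3p (-0.14) differed little. Summed over the authors' deposited table, the muscle markers had 681702 in CK against 657489 in M, and the fibroblast markers 15205 against 51082. The leukocyte markers summed to 11220 and 6978, but 3 of 4 had higher M means, and the sum followed miR-150-5p alone (10399 in CK, 5467 in M). Of the others, miR-142-3p (201 and 368) and miR-142-5p (446 and 842) were at an unadjusted p below 0.05. The red cell markers summed to 83707 and 40117, almost all of it miR-486, whereas miR-451-5p was at 2038 and 2089. The endothelial markers summed to 312028 and 382054, and the liver miRNA miR-122-5p was at 16.9 and 99.9. No marker passed the adjusted threshold. The part of cell make-up in the lower miR-29 levels was not tested.

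**Figure D3:**
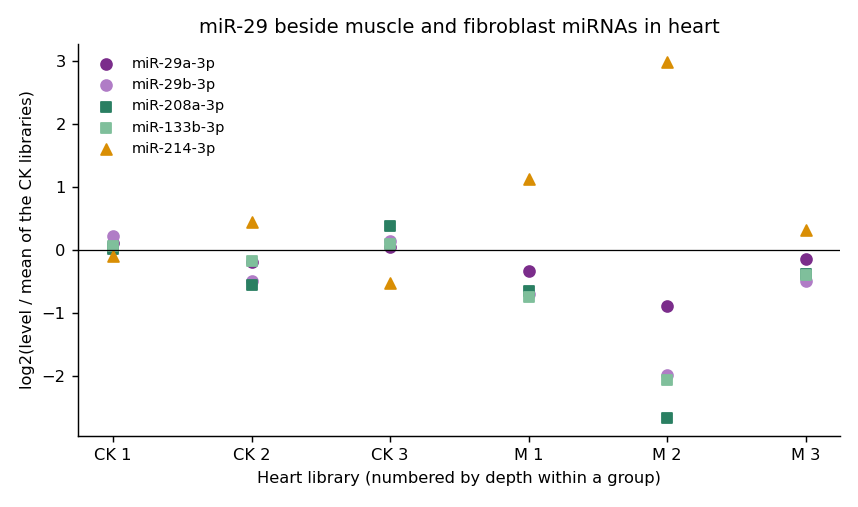
Level in each heart library relative to the mean of the 3 CK libraries, on the log2 scale, for miR-29a-3p, miR-29b-3p, the muscle miRNAs miR-208a-3p and miR-133b-3p and the fibroblast miRNA miR-214-3p. M library 2 is the lowest for the first 4 and the highest for miR-214-3p, and M library 3 is nearest to CK.

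Over the 6 heart libraries, the miRNAs outside the family with the most similar pattern were ranked by Pearson correlation of log2(level + 1) among 301 miRNAs with a mean of at least 10. All of these values share libraries, size factors and the group difference. For miR-29a-3p they were miR-181c-5p (r = 0.997), miR-3585-3p (0.996) and miR-133b-3p (0.983). For miR-29b-3p they were miR-3585-3p (0.993), miR-181c-5p (0.991) and miR-185-5p (0.982). For miR-29b-5p they were miR-1306-5p (0.965), the red cell miRNA miR-144-3p (0.945) and miR-32-5p (0.930). miR-29a-3p and miR-29b-3p themselves correlated at 0.994, and miR-29a-3p and miR-29b-5p at 0.764. For the scarcer arms the nearest were miR-151-5p for miR-29a-5p (0.971), miR-126a-5p for miR-29c-3p (0.976) and miR-345-3p for miR-29c-5p (0.977).

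In the exosome table, miR-29a-3p was again the main member and differed little between groups, whereas miR-29b-3p had a lower mean in M without passing the adjusted threshold. The summed family level was 14803 ± 3317 normalized reads in CK and 12074 ± 1413 in M (SD, n = 3 libraries each). miR-29b-3p made up 11.9% of it in CK and 4.72% in M. All 3 members had lower M means, as had 59.1% of the 367 exosome miRNAs. In the authors' deposited table, none (0 of 3) passed the adjusted threshold, beside 3.81% of all exosome miRNAs, and limma also called 0 of 3, beside 2.94%. At an unadjusted p below 0.05, 1 of 3 was lower by either test, beside 8.17% of all exosome miRNAs by the authors' deposited p-values and 8.46% in limma.

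miR-29b-3p was at 1963, 818 and 2494 normalized reads in exosome CK libraries 1 to 3 and at 538, 705 and 465 in M libraries 1 to 3. Every CK library lay above every M library, with CK library 2 nearest to M, and a separation of this kind was found for 10.3% of 272 exosome miRNAs. The CK mean was 3.09 times the M mean by the authors' deposited table (log2 fold -1.63, p = 0.0143, adjusted p = 0.175). limma gave -1.50 ± 0.46 (SE), a 95% interval of -2.50 to -0.50 and an adjusted p of 0.133. The log2 fold of the means was -1.97 to -1.29 without each library in turn. The exact two-sided permutation test gave p = 0.10, the smallest it can give.

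miR-29a-3p was at 16454, 11332 and 10747 normalized reads in exosome CK and at 11571, 12505 and 10071 in M. The groups overlapped, and CK library 1 was the highest. The log2 fold in the authors' deposited table was -0.17 (DESeq p = 0.751), and limma gave -0.15 with a 95% interval of -0.69 to 0.38. Without CK library 1 the log2 fold of the means was 0.044. miR-29c-3p was at 179, 298 and 125 in CK and at 107, 199 and 60.4 in M, with overlapping groups (log2 fold -0.72, DESeq p = 0.637 in the authors' deposited table). Its limma interval, -2.78 to 1.20, was wide. No 5p arm was listed, in a table that listed miRNAs down to 1 whole read over the 6 libraries.

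**Figure D4:**
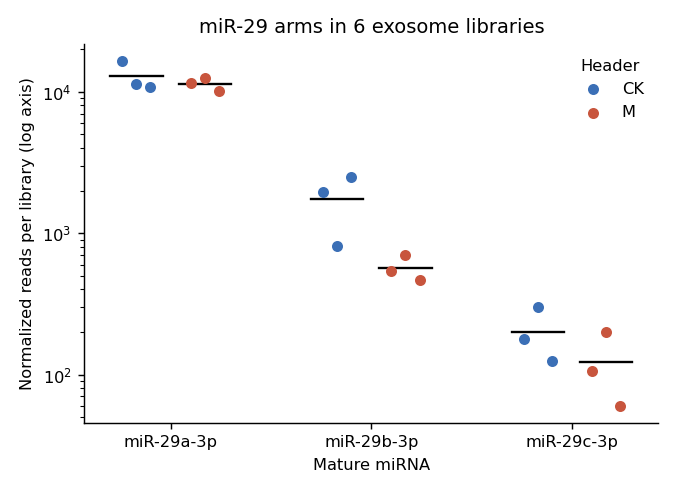
Normalized reads (log axis) of the 3 miR-29 arms listed in the exosome table, in 3 CK and 3 M libraries, with 1 point per library and a line at each group mean. The 3 CK points of miR-29b-3p, 818 to 2494, lie above the 3 M points, 465 to 705, while the points of the other 2 arms overlap.

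The ratio of miR-29b-3p to miR-29a-3p was lower in M in both tables. It was taken from whole reads within a library after the levels had been seen, and no size factor enters it. In heart there were 2.31, 1.74 and 2.30 reads of miR-29b-3p per 100 reads of miR-29a-3p in CK libraries and 1.67, 0.996 and 1.67 in M libraries. In the exosome table there were 11.9, 7.21 and 23.2 in CK and 4.65, 5.64 and 4.61 in M. The M libraries lay below the CK libraries in each table (exact two-sided permutation p = 0.10 in each, the smallest possible). The same separation of the ratio to miR-29a-3p was found for 3.65% of 301 other heart miRNAs and 8.92% of 269 other exosome miRNAs. The difference between M and CK on the log2 scale was -0.58 in heart (-0.33 without M library 2). In the exosome table it was -1.35 (-0.91 without CK library 3). These 2 differences were not tested against each other. All 6 exosome libraries, from 4.61 upward, lay above all 6 heart libraries, which reached 2.31. This was not tested, because tissue and table change together.

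**Figure D5:**
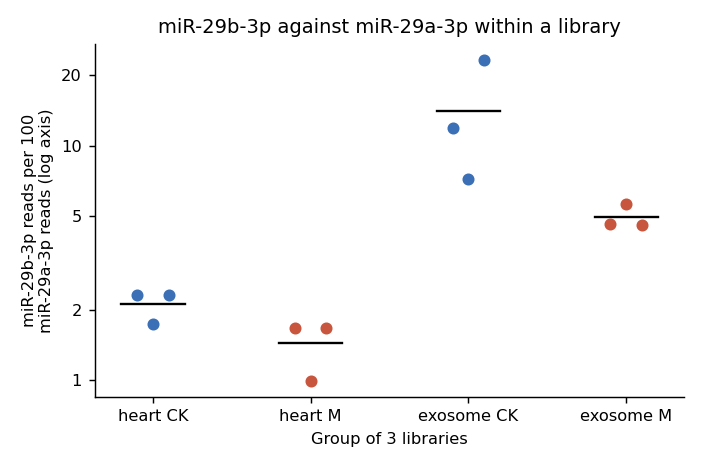
Reads of miR-29b-3p per 100 reads of miR-29a-3p (log axis) in each of 12 libraries, with 1 point per library and a line at each group mean. M libraries lie below CK libraries in heart (0.996 to 1.67 against 1.74 to 2.31) and in the exosome table (4.61 to 5.64 against 7.21 to 23.2).

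The exosome miRNAs most like miR-29b-3p over the 6 libraries, among 269 with a mean of at least 10, were miR-214-3p (r = 0.980), miR-375-3p (0.980) and miR-676 (0.965). miR-214-3p, which ran opposite to miR-29a-3p and miR-29b-3p in heart, was at 4087, 1405 and 3838 normalized reads in exosome CK and at 850, 1127 and 523 in M. Like miR-29b-3p, it was lowest of CK in library 2 and highest of M in library 2. All 3 fibroblast markers had lower exosome means in M, summing in the authors' deposited table to 10716 in CK against 2843 in M. The muscle markers summed to 9727 and 9961, from 4 of 6 listed, with miR-208a-3p and miR-208b-3p not listed. The leukocyte markers summed to 64143 and 65102, with 3 of 4 higher in M and miR-150-5p lower (22246 and 12799). The red cell markers summed to 266259 and 297308 and the endothelial markers to 2847 and 2792, while miR-122-5p was at 30260 and 16967. The part of these markers in the lower miR-29b-3p was not tested. The nearest to miR-29c-3p was miR-450b-3p (0.920). The 3 nearest to miR-29a-3p (0.907 each), miR-3572, miR-138-1-3p and miR-598-3p, had a mean of 0 in M and give no usable likeness.

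A pair of lists of other miRNAs with known roles in fibrosis set these values in context. Of 12 miRNAs known as restraints on fibrosis, 5 had higher and 7 lower means in heart M, none passed, and the median log2 fold was -0.03, beside -0.01 over 324 heart miRNAs with means of at least 10 in both groups. By the authors' deposited table, those under an unadjusted p of 0.05 were the muscle miRNAs miR-133a-3p (log2 fold -0.97) and miR-133b-3p (-0.91), whose targets include connective tissue growth factor, and let-7i-5p (0.88). The most abundant was miR-26a-5p, with a log2 fold of -0.01. Among exosome miRNAs, 8 of these 12 had higher and 4 lower means, with a median of 0.53 beside -0.14 over 263 miRNAs. All 263 had means of at least 10 in both groups. miR-133b-3p, counted among the 8, had exosome means of only 0.139 in CK and 0.411 in M. There miR-30c-5p, another regulator of connective tissue growth factor, miR-26a-5p and miR-26b-5p rose by the authors' deposited table (log2 folds 1.20, 1.25 and 1.07, adjusted p = 0.0415, 0.0104 and 0.0479). miR-29b-3p thus had an exosome fold opposite in sign to those 3. At an unadjusted p below 0.05, let-7i-5p was higher (0.65) and miR-24-3p lower (-0.75) in the exosome table.

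Of 12 miRNAs known to promote fibrosis or cardiac remodelling, 9 had higher and 3 lower means in heart M, none passed, and the median log2 fold was 1.24. miR-21-5p, the most abundant of them and a miRNA of activated fibroblasts, had by the authors' deposited table a log2 fold of 2.48 (p = 0.00132, adjusted p = 0.151), and miR-155-5p, an immune cell miRNA, 1.22 (p = 0.00605, adjusted p = 0.289). miR-155-5p had all M libraries above all CK libraries. By contrast, miR-214-3p, miR-132-3p and miR-212-3p had overlapping groups and were highest in M library 2, which stood apart. In M libraries 1 to 3, miR-132-3p was at 376, 816 and 219 normalized reads and miR-212-3p at 4.25, 23.5 and 6.18. The heart median of this list was not recomputed without M library 2. Among exosome miRNAs, 9 of the 12 were listed, 8 of them with lower means in M. The median was -1.90, with 2 members listed at 0 in M taken at their bound. Those 2, miR-132-3p and miR-212-3p, had reads in exosome CK library 3 alone. This list shares its fibroblast miRNAs and miR-208a-3p and miR-208b-3p with the markers above. By the authors' deposited table miR-199a-3p fell (log2 fold -1.93, adjusted p = 0.000243), while miR-214-3p (-1.90) and miR-192-5p (-1.19) were lower at an unadjusted p below 0.05. Set against these lists, the miR-29 members had a median log2 fold of -0.63 in heart and -0.72 in the exosome table, as a description of members chosen by name. These medians cover unlike sets, both arms in heart and the 3p arms alone in the exosome table. The heart 3p arms had log2 folds of -0.41 (miR-29a-3p), -0.92 (miR-29b-3p) and -0.21 (miR-29c-3p).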

How the data were processed

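Small RNA libraries were made from rat heart and serum with a NEBNext kit, per the labels' protocols. The submitters' processing notes name Bowtie2 2.2.6, DESeq 1.30.0 and the build mRatBN7.2, and these notes give no further step. For each miRNA the authors deposited group means of normalized reads, a signal in reads divided by size factors. The authors also deposited the ratio (fold) of M to CK, its log2, and a p-value with its Benjamini-Hochberg adjusted form.

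Deposited means carry enough digits to solve the whole reads of 3 libraries per group. A solution was kept where exactly 1 set of reads gave both means, the overall mean and the fold as printed, which held for 531 of 574 heart and 330 of 367 exosome miRNAs. The others, all abundant, were not searched. The solver and limma were tested on simulated data. For miRNAs solved and averaging 10 or more, log2(level + 1) was compared in limma 3.58.1 (R 4.3.3), its prior following the mean, and p-values were adjusted by Benjamini-Hochberg over 307 heart and 272 exosome miRNAs. The added 1 by itself shrinks log2 differences of scarce miRNAs, but averaging logs rather than levels can enlarge them. Against the log2 fold of the means, the limma difference was larger for heart miR-29a-5p (-0.95 against -0.84). It was also larger for miR-29c-3p (-0.52 against -0.21), and smaller for miR-29b-5p (-1.28 against -1.37). Single members were also compared with exact two-sided permutation tests in scipy 1.17.1. The 2 tables were normalized separately, and nothing was tested between them.

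All members listed were named. Beside them, the 3 miRNAs with the highest correlation to each member were ranked, and miRNAs of the fibrosis lists were named where the authors' unadjusted p was below 0.05 in either table or where they were the most abundant of their list. The muscle, fibroblast, leukocyte, red cell, endothelial and liver marker lists were summed. The members and lists were chosen with earlier results of these data known. The alternatives tried were other scalings, pseudocounts, filters, thresholds and size factors, and leaving out each library.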

Additional observations from a re-analysis of the deposited data

How the results depend on the processing

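No paired analysis was possible because the columns headed CK and M carry no replicate numbers and the libraries solved from them cannot be matched to labelled samples. Of 162 alternative values for single members, 158 kept the negative sign of the reported value. None of 81 limma alternatives for members passed an adjusted p of 0.05, and the 3 lowest were 0.0695 for exosome miR-29b-3p without CK library 2, 0.0818 for it with a pseudocount of 5, and 0.0931 for heart miR-29b-5p without M library 2. The 4 that reversed were of heart miR-29c-3p, highest without M library 2, and exosome miR-29a-3p, highest without CK library 1. Without each library in turn, the former had a limma log2 difference of -0.97 to 0.29 and a log2 fold of the means of -0.60 to 0.26. The latter had -0.27 to 0.039 and -0.29 to 0.044. The count of miRNAs called by limma was 3 in heart and 8 in the exosome table, and 1 to 12 and 0 to 1 without each library in turn. At an adjusted p below 0.1 the authors' deposited exosome table had 22 calls in place of 14. Scaled to RPM, that is to all miRNA reads of a group, the heart family was at 3198 in CK and 2124 in M and the exosome family at 6683 and 4996. Without the 6 most abundant miRNAs in the total these were 5539, 3947, 13434 and 9585. Scaling to the total of each group in place of size factors moved every log2 fold by -0.17 in heart and -0.13 in the exosome table. Adjusted over miRNAs with a mean of at least 10 alone, the authors' deposited p-values became 0.303 for heart miR-29b-5p, 0.361 for heart miR-29b-3p and 0.148 for exosome miR-29b-3p. Scarce arms rest on few reads, down to 5 for miR-29a-5p, and 3 libraries a group limit what could be detected.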

Other observations

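miR-29a-3p and miR-29c-3p were among 20 pairs of heart miRNAs of equal length that differ by a single base. By the ratio of overall means in the authors' deposited table, their 198 was the second largest of the 20, after 706 for miR-7a-5p over miR-7b and before 47.3 for miR-133a-3p over miR-133b-3p. In the exosome table their ratio of 75.0 was the fourth largest of 16 such pairs. The assignment of reads between such pairs was not tested.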
